A study of Rattus norvegicus with 6 samples.

Results

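The Hox genes of the A, B, C and D clusters were examined in RNA-seq data from rat spinal cord. Members were taken by gene symbol: every row whose symbol is Hox, a cluster letter and a paralog number. The rule gave 35 of the 22050 rows of the gene table, with 34 distinct symbols, because Hoxa11 stood on 2 rows. Mammals carry 39 Hox genes, and Hoxa3, Hoxa5, Hoxa6, Hoxa9 and Hoxa10 were not reached by the rule, though 9 rows that carry a Hox protein of these kinds or Hox-A7-like only in their description are given separately.

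The study compared 3 libraries from rats with spared nerve injury (SNI), an injury of sciatic nerve branches that brings on neuropathic pain (the SNI-NP group), with 3 libraries from rats given sham surgery (Sham). Male Sprague–Dawley rats aged 8 to 10 weeks were used, as the methods describe. The labels state neither the time after surgery, nor the level of the cord that was taken, and they do not say whether each library came from a single animal, so p-values measure the spread between these libraries. The paper's methods name lumbar cord for its qPCR and only spinal cord for the RNA-seq. Library totals lay between 16670760 and 18151156 counts, and 3 counts, taken as the limit that a count of 0 allows, came to 0.167 to 0.180 CPM, the unit in which each count is divided by its TMM-scaled library total.

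Hox genes encode homeodomain transcription factors that give cells their position along the head-to-tail axis. Within each cluster, the genes of low paralog number are used from the hindbrain downward and those of high number only toward the tail, and adult cells keep much of this pattern. In the spinal cord, paralog groups 4 to 8 are known for cervical and upper thoracic levels, group 9 for thoracic levels, group 10 for lumbar levels and groups 11 to 13 for the sacral and caudal end. Hox proteins bind DNA together with the TALE homeodomain proteins Pbx and Meis, and Polycomb complexes keep silent Hox genes closed.

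Members of all 13 paralog groups were detected, and the levels peaked at groups 8 and 10. Levels between genes were compared in FPKM, the authors' value, which scales fragments for gene length and library size. The summed FPKM of group 8 was 24.1 on average over the 6 libraries (range 17.3 to 34.4), or 21.0% of all Hox FPKM. Group 10 followed with 19.1 (14.2 to 25.2), group 9 with 12.6 (10.7 to 15.4) and group 13 with 9.28 (5.70 to 14.8). The ranges of groups 8 and 10 overlapped, although group 8 was the higher in 6 of 6 libraries. In CPM, which is not scaled for gene length, the order was the reverse, with group 10 above group 8 in 6 of 6 libraries. The other groups lay between 8.40 (group 6) and 2.52 (group 1), and most neighbours in that order overlapped over the libraries, such as group 7 (8.10), group 2 (7.30) and group 4 (6.28).

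**Figure D1:**
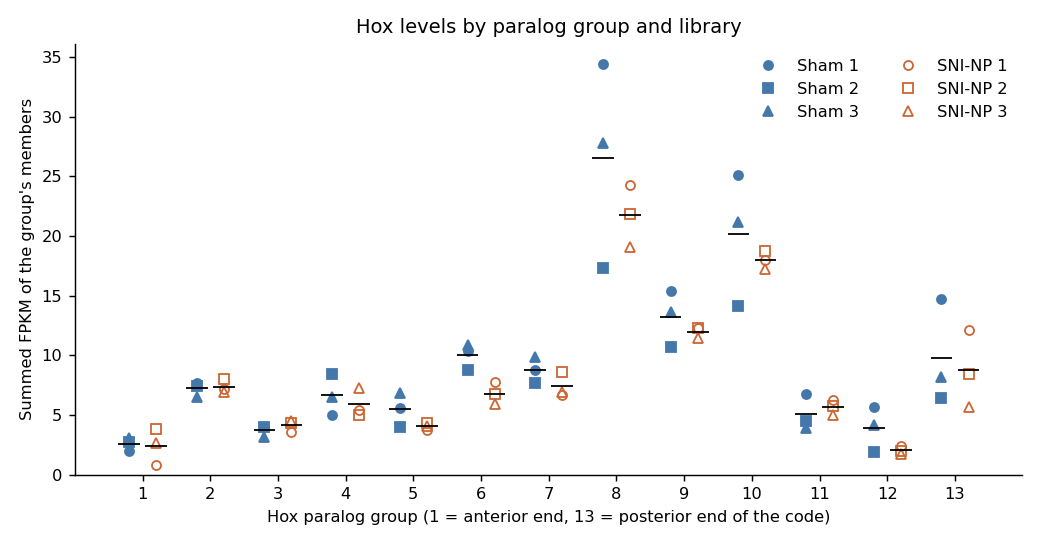
Summed FPKM of the Hox members in each paralog group (horizontal axis, group 1 to 13), 1 point per library, filled blue for Sham and open orange for SNI-NP, with a black line at each group's mean of 3. Groups 8 and 10 stand highest in both conditions, and Sham 1 and Sham 2 mark the top and the bottom of the Sham points in both.

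A single gene carried most of the FPKM of groups 8, 10 and 13, but not of group 9, where Hoxd9 held 40.0%. Hoxb8, a gene of the trunk cord, held 86.1% of the FPKM of group 8, Hoxc10, a gene of lumbar motor neurons, 82.1% of group 10, and Hoxb13, the most posterior gene of the B cluster, 81.8% of group 13. By mean FPKM, Hoxb8 (20.8) was followed by Hoxc10 (15.7), Hoxb13 (7.60), Hoxb7 (6.25), Hoxb2 (5.08) and Hoxd9 (5.05). Hoxc10 stood at the 60.5th percentile and Hoxb8 at the 51.4th percentile of mean CPM among the 14426 genes tested, so even the highest members were genes of middling level.

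In FPKM, the rows named only by description change which group leads. A pair of rows described as Hox-A10-like, which split shared reads into fractions, summed to 638, 499 and 669 counts in Sham and to 398, 686 and 568 in SNI-NP, and each of these 6 sums was whole. RefSeq now gives 1 of this pair, listed as LOC100911668, the symbol Hoxa10. With these rows, group 10 came to 37.6 FPKM (29.6 to 44.3) and stood above group 8 in 6 of 6 libraries, with Hoxc10 at 41.7% of it. Reads of Hoxa7, a trunk gene, were divided in the same way: its own row and the Hox-A7-like row together held 267, 173 and 205 counts in Sham against 251, 203 and 129 in SNI-NP, of which the Hox-A7-like row took most. The level of Hoxa7 on its own row is therefore uncertain.

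By cluster, the B genes held 49.9% of Hox FPKM, the C genes 30.2%, the D genes 12.4% and the A genes under the rule 7.49%. With the 9 rows named by description, all of them A genes, the shares were 38.8% for B, 28.2% for A, 23.4% for C and 9.62% for D. The clusters did not follow 1 profile. The B cluster was measured from Hoxb2 to Hoxb9 and again at Hoxb13, while the C cluster rose from Hoxc8 (1.10 FPKM) through Hoxc9 (3.22) to Hoxc10 and stayed measurable at Hoxc11 (3.17), Hoxc12 (2.96) and Hoxc13 (0.793). The D cluster had Hoxd8 (2.25), Hoxd9 (5.05) and Hoxd10 (3.41) and then fell off, with Hoxd11 at 0.0767, Hoxd12 at 0.0200 and Hoxd13 at 0.113.

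**Figure D2:**
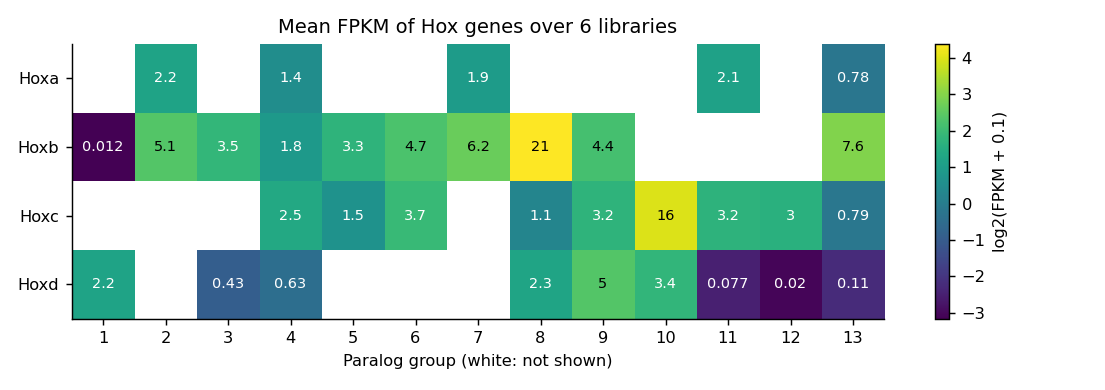
Mean FPKM over the 6 libraries of Hox genes, with the 4 clusters as rows and paralog groups 1 to 13 as columns; colour is log2(FPKM + 0.1), the number in a square is FPKM, and white squares are not shown. Hoxb8 and Hoxc10 are the brightest squares, and the D row darkens from Hoxd10 to Hoxd11.

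In counts, Hoxd10 had CPM of 9.85, 4.96 and 8.38 in Sham and of 7.07, 8.33 and 7.13 in SNI-NP. Its neighbour Hoxd11 had CPM of 0.0600, 0.0563 and 0 in Sham and of 0.115, 0 and 0.232 in SNI-NP, at or close to the limit of 3 counts in each library. Hoxd12 had 2 counts in Sham 1 and 0 in the other 5 libraries. The step from Hoxd10 to Hoxd11 thus held in each of the 6 libraries. The promoters on both sides of this step are printed from RefSeq (build GRCr8, which differs from the build the study aligned to), 250 bases before and 50 after the start of each gene, plus strand of chromosome 3, where the genes follow each other from Hoxd12 to Hoxd9. Capitals mark the single match to TGATNNAT, the letters of a composite Pbx–Hox site, searched on both strands.
Hoxd9 (chr3:80007756-80008055): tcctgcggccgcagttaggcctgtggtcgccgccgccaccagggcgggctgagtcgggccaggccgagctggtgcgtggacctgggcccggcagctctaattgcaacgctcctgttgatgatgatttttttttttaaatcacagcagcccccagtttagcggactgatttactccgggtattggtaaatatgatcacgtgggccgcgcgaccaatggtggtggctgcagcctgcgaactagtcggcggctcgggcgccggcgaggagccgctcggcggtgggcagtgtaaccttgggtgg
Hoxd10 (chr3:80001697-80001996): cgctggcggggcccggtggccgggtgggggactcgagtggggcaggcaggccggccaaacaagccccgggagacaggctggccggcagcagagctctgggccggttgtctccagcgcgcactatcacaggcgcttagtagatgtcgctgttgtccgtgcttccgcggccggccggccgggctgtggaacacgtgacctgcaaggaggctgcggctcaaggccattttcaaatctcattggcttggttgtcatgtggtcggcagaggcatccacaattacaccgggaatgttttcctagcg
Hoxd11 (chr3:79992144-79992443): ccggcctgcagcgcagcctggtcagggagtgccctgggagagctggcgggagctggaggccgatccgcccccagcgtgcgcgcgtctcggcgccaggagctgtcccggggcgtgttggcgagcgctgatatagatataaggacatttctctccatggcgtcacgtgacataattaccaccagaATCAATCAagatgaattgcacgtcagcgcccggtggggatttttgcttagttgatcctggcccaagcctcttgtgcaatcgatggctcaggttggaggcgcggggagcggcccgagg
Hoxd12 (chr3:79984856-79985155): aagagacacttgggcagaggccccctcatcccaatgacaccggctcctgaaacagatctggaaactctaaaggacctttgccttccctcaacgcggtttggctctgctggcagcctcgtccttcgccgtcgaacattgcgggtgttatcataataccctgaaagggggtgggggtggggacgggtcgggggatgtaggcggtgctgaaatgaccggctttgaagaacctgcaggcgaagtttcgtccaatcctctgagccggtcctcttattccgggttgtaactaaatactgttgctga

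These windows held 27 CG pairs for Hoxd9, 24 for Hoxd10, 25 for Hoxd11 and 16 for Hoxd12, where the median over 33469 rat promoters of this length was 7. So the measured and the near-silent genes both had CG-rich promoters. TGATNNAT was found in the Hoxd11 window, whose gene was near 0, and in 9.10% of all promoters. TTTATNG, the letters of Cdx and posterior Hox sites, was found in none of the 4 and in 11.3% of all promoters. The matches describe these letters only.

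Of the 35 rows, 28 passed the filter on low counts and 7 did not. Among the 7 were the anterior gene Hoxb1, the second row of Hoxa11, and the posterior genes Hoxd11, Hoxd12, Hoxa13 and Hoxd13. Hoxb1, a hindbrain gene, had 1 count in Sham 1 and 0 elsewhere. Hoxa13, a gene of the caudal end, was the highest of the 7 with a CPM of 0.111 to 1.14.

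No Hox gene passed the test between SNI-NP and Sham. With edgeR's quasi-likelihood test and Benjamini-Hochberg adjustment over 14426 genes, 0 of 28 members had an adjusted p under 0.05, where 0% of all genes tested did. At an unadjusted p under 0.05 the members numbered 0 of 28, against a background of 10.8%. The smallest unadjusted p among the members was 0.0751 and their adjusted p ran from 0.491 to 0.998. DESeq2 called 0 members under both rules, and limma on log2(FPKM + 1) called 1 at an unadjusted p, Hoxc8. Leaving out Sham 2 gave 4 members with an unadjusted p under 0.05 and leaving out SNI-NP 1 gave 2, with 0 by adjusted p in each case.

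The log2 fold changes of the 28 members ran from -0.87 to 0.31, with standard errors between 0.16 and 0.70 and a median of 0.32. Their median was -0.11, beside 0.0057 over all genes tested, and 71.4% of them (20 of 28) were below 0, beside 49.1% of all genes. Among the 13 members of groups 4 to 8, 11 had negative estimates with a median of -0.21, whereas the medians were 0.02 for groups 1 to 3, -0.04 for groups 9 and 10 and -0.02 for groups 11 to 13. Each is a count of estimates that did not pass the test one by one, and neighbouring genes of a cluster are not independent.

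**Figure D3:**
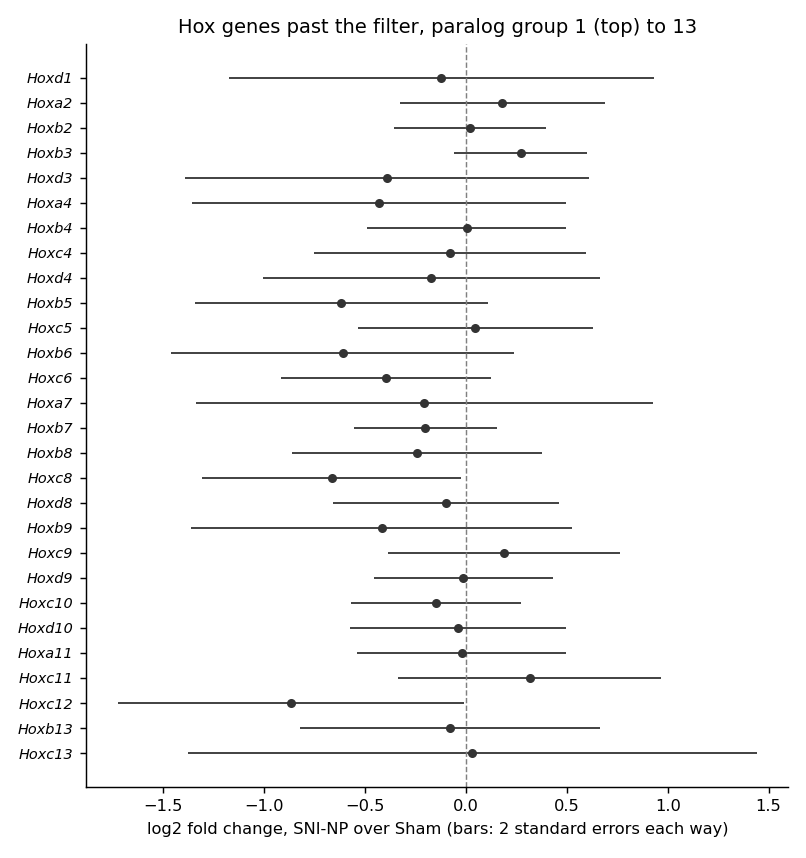
log2 fold change of SNI-NP over Sham (horizontal axis) for the 28 Hox rows that passed the filter, ordered by paralog group; points are edgeR estimates and bars reach 2 standard errors each way. The intervals of Hoxc8 and Hoxc12 end just below 0 and those of the other 26 cross it.

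Hoxc8, a gene of brachial and thoracic levels, had the smallest p. Its CPM were 2.46, 3.49 and 2.68 in Sham and 2.19, 1.22 and 2.03 in SNI-NP, so that the groups did not overlap. Its log2 fold change was -0.67 (SE 0.32, adjusted p = 0.491). It was the only member with every SNI-NP library below every Sham library, which is 1 of 28 against 8.14% of all genes tested.

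Hoxb3, a gene of the hindbrain and upper cervical cord, was the only member with every SNI-NP library above every Sham library, 1 of 28 against 10.3% of all genes. Its CPM were 7.20, 6.99 and 6.17 in Sham and 7.65, 8.33 and 8.58 in SNI-NP, with a log2 fold change of 0.27 (SE 0.16, adjusted p = 0.557). The gap between the groups was narrow beside the spread within each.

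Hoxc12, a sacral and caudal gene, had the most negative estimate, -0.87 (SE 0.43, adjusted p = 0.496). Its CPM were 4.68, 1.52 and 3.49 in Sham and 2.13, 1.67 and 1.51 in SNI-NP: Sham 1 and Sham 3 were high, and Sham 2 lay among the SNI-NP libraries. Hoxb5, a cervical gene, showed the same arrangement, with CPM of 6.48, 3.27 and 8.56 in Sham and of 3.22, 3.94 and 4.75 in SNI-NP and a log2 fold change of -0.62 (SE 0.36, adjusted p = 0.544). Both estimates depended on single libraries. Hoxc12 ran from -1.21 without Sham 2, with an unadjusted p under 0.05 in edgeR, to -0.51 without Sham 1, and Hoxb5 from -0.91 without Sham 2, also under 0.05, to -0.31 without Sham 3. With the summed level of spinal neuron markers as a covariate, they were -0.0096 and -0.06.

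Paralog group 6 was the only group whose summed CPM did not overlap between conditions. The sums were 9.01, 8.62 and 9.49 in Sham and 6.79, 6.55 and 6.03 in SNI-NP, a mean of 9.04 ± 0.435 (SD, n = 3) against 6.46 ± 0.388. Its FPKM sums did not overlap either, nor did the sums with the row described as Hox-A6-like. Both hold the same reads of these members and are no separate support, and the Hox-A6-like row alone overlapped. Neither of its 2 members passed the test alone. Hoxb6, with CPM of 4.62, 2.25 and 4.66 in Sham and of 3.85, 2.05 and 1.62 in SNI-NP, had a log2 fold change of -0.61 (SE 0.42, adjusted p = 0.601). Hoxc6, with CPM of 4.38, 6.37 and 4.83 in Sham and of 2.93, 4.50 and 4.41 in SNI-NP, had one of -0.40 (SE 0.26, adjusted p = 0.580). Sham 2 was the lowest Sham library for Hoxb6 and the highest for Hoxc6, and each gene overlapped between the conditions although their sum did not. The sum was given no test, being 1 of 13 such sums. Of all single genes tested, 8.14% had every SNI-NP library below every Sham library and 10.3% had every one above. These are shares of single genes, and none was worked out for sums. Whether a group without overlap among 13 sums stands out was therefore not tested, and no change is read from it.

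For the other 12 groups the sums overlapped. Group 10 had 37.5 ± 11.02 CPM in Sham and 34.3 ± 1.39 in SNI-NP, group 8 had 26.8 ± 8.46 and 22.2 ± 3.06, and group 9 had 16.6 ± 3.25 and 15.7 ± 0.667. Group 4 had 11.4 ± 2.88 and 10.7 ± 2.07, group 5 had 10.1 (8.06 to 12.05) and 8.12 ± 0.582, and group 7 had 10.2 ± 1.29 and 8.83 ± 0.713. At the anterior end, group 1 had 4.54 ± 1.03 and 4.26 ± 2.66, group 2 had 8.80 ± 0.832 and 9.32 ± 0.566, and group 3 had 8.01 ± 1.01 and 9.12 ± 0.903. At the caudal end, group 11 had 7.44 ± 2.14 and 8.06 ± 1.02, group 12 had 3.27 ± 1.65 and 1.77 ± 0.323, and group 13 had 12.2 ± 5.60 and 11.5 ± 4.48. In 12 of the 13 groups the SD was the larger in Sham.

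The share of Hox FPKM from groups 10 to 13, a ratio within each library, was 36.0%, 27.5% and 29.8% in Sham and 35.1%, 31.8% and 30.1% in SNI-NP. The means were 31.1 ± 4.38% and 32.3 ± 2.51%, a difference of 1.26 percentage points, smaller than either SD. As a share of CPM the means were 35.8% and 37.0%, and without group 13 they were 25.3% and 26.3%. Counting the rows named by description raised them to 36.6% and 37.9%. The balance of posterior to anterior Hox signal thus differed between the conditions by less than between libraries of 1 condition.

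**Figure D4:**
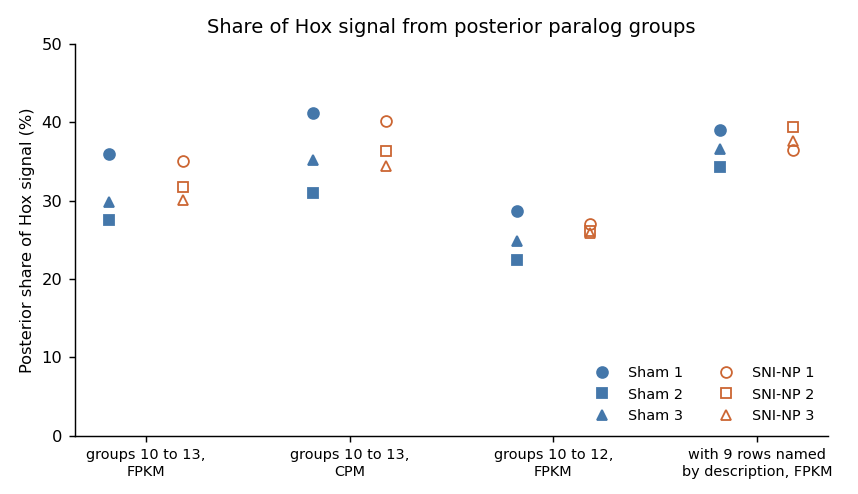
Percent of the Hox signal that comes from posterior paralog groups (vertical axis) under 4 ways of counting (horizontal axis), 1 point per library, filled blue for Sham and open orange for SNI-NP. The conditions overlap under each way of counting, and Sham 2 is the lowest point each time.

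Libraries of the same condition differed widely in Hox genes. The coefficient of variation within groups had a median of 26.8% over the 28 members, with a range of 7.04% to 61.7%, beside 15.4% over all genes tested and 19.6% over the 8369 genes within the members' range of mean CPM. Most members lie in the lower part of that range, where counting noise is larger, and the difference was not tested. Among the 10 members of groups 9 to 13 that passed, Sham 1 was the highest Sham library for 8 and Sham 2 the lowest for 8. In SNI-NP, the first library was the highest for 5 of 5 members of groups 11 to 13 and the third was the lowest for 5 of 5. Hoxb13 followed that order, with CPM of 16.1, 7.04 and 8.56 in Sham and of 13.5, 9.77 and 6.67 in SNI-NP.

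Ratios of 2 genes of 1 cluster showed the same within-group spread. Hoxc10 over Hoxc4, a lumbar over a cervical gene, was 9.44, 2.48 and 8.01 in Sham and 6.27, 5.67 and 4.21 in SNI-NP. Hoxb9 over Hoxb3 was 0.842, 0.379 and 0.868 in Sham and 0.774, 0.273 and 0.270 in SNI-NP, so that Sham 1, Sham 3 and SNI-NP 1 stood apart from the other 3 libraries. Hoxc4 itself was highest in Sham 2, at 8.28 CPM, where Hoxc10 was lowest.

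Hoxb8 had CPM of 30.0, 12.2 and 23.7 in Sham and of 21.5, 18.8 and 15.5 in SNI-NP, and Sham libraries held both ends of the range. Its log2 fold change was -0.24 (SE 0.31, adjusted p = 0.788), an interval of 2 standard errors from -0.86 to 0.38. Hoxc10 had CPM of 37.4, 20.6 and 31.3 in Sham and of 28.1, 26.8 and 25.6 in SNI-NP, with a log2 fold change of -0.15 (SE 0.21, adjusted p = 0.811, interval -0.57 to 0.27). The 3 SNI-NP libraries lay close together for Hoxc10 and inside the Sham range.

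The libraries held strong markers of peripheral nerve and ganglion beside those of the cord. The 5 Schwann cell markers summed to 74588 to 90071 CPM in Sham and 85891 to 114000 in SNI-NP. The 8 markers of dorsal root ganglion neurons summed to 666 to 1335 and 225 to 1805. All 8 had counts in every library, although Mrgprd in SNI-NP 1 (0.0575 CPM) was below the limit of 3 counts. The 7 spinal neuron markers summed to 808, 395 and 686 CPM in Sham and to 479, 432 and 406 in SNI-NP. All 7 were detected in every library. Whether ganglion neurons added to these 7 markers was not tested, so the sum may not stand for cord neurons alone. The 4 astrocyte markers summed to 1487, 569 and 1093 in Sham and to 1034, 714 and 660 in SNI-NP, and the 5 motor neuron markers, of which 4 had counts in every library, to 25.1 to 70.3 in Sham and 28.1 to 34.9 in SNI-NP. Oligodendrocyte markers summed to 29140 to 39302 and 28664 to 38303, and the markers of telencephalon and cerebellum to 2.39 to 4.92 and 1.499 to 2.65. Erythroid markers summed to 790 to 1843 in Sham and 1697 to 3983 in SNI-NP. In edgeR, 4 of 4 tested had an unadjusted p under 0.05, beside 10.8% of all genes, and 0 an adjusted one. By the same rule 3 of 6 B cell markers, 2 of 7 granulocyte precursor markers and 2 of 7 spinal neuron markers passed unadjusted. The latter, Snap25 and Slc17a6, were lower in SNI-NP. Each other list had 0 or 1, and no marker passed after adjustment.

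The order of the 6 libraries was the same for Hoxb8, for Hoxc10 and for the spinal neuron, motor neuron and astrocyte sums, from Sham 1 down through Sham 3 and the SNI-NP libraries to Sham 2. Of the 28 members, these 2 alone had that order. That order held for part of the markers behind each sum. Of the spinal neuron markers, Slc32a1 and Slc6a5 had it and Snap25 and Gad1 did not. Rbfox3, Syt1 and Slc17a6 were lowest in SNI-NP 1, as was Isl1 of the motor neuron list, and the ganglion sum was lowest there too. Of the other motor neuron markers, Chat and Slc18a3 had the order and Slc5a7 and Mnx1 did not. Of the astrocyte markers, Gfap and Aldh1l1 had it and Aqp4 and Slc1a2 did not. The oligodendrocyte markers Mog and Mobp had it too, although their list's sum did not, so the order was not particular to neurons. Per 1000 CPM of spinal neuron markers, Hoxb8 stood at 37.1, 31.0 and 34.5 CPM in Sham and at 44.7, 43.4 and 38.1 in SNI-NP, and Hoxc10 at 46.3, 52.1 and 45.6 in Sham and at 58.7, 61.9 and 63.1 in SNI-NP. On this scale, formed after the values were seen, 4 of 28 members (Hoxb8, Hoxc10, Hoxd10 and Hoxc11) had every SNI-NP library above every Sham library, against 12.3% of all genes tested, and Hoxd9 and Hoxb7 overlapped. The divisor itself was lower in SNI-NP than in Sham 1 and Sham 3, and it may hold RNA of ganglion neurons too, which was not tested. With the spinal neuron sum as a covariate in edgeR, Hoxb8 had a log2 fold change of 0.43 (unadjusted p = 0.0223, adjusted p = 0.527) and Hoxc10 of 0.26 (adjusted p = 0.572), opposite in sign to those without it. Others moved further below 0 in the same fit: Hoxc6 to -0.66 (unadjusted p = 0.0478 in edgeR), Hoxc8 to -0.84 and Hoxc4 to -0.52. Hoxb8 and Hoxc6 were the 2 of 28 members with an unadjusted p under 0.05, against 8.77% of all genes in this fit. The part of tissue content in these levels was not tested beyond that fit and the one with the ganglion neuron sum as a covariate. In bulk tissue fewer cells of a type and less RNA per cell cannot be told apart.

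**Figure D5:**
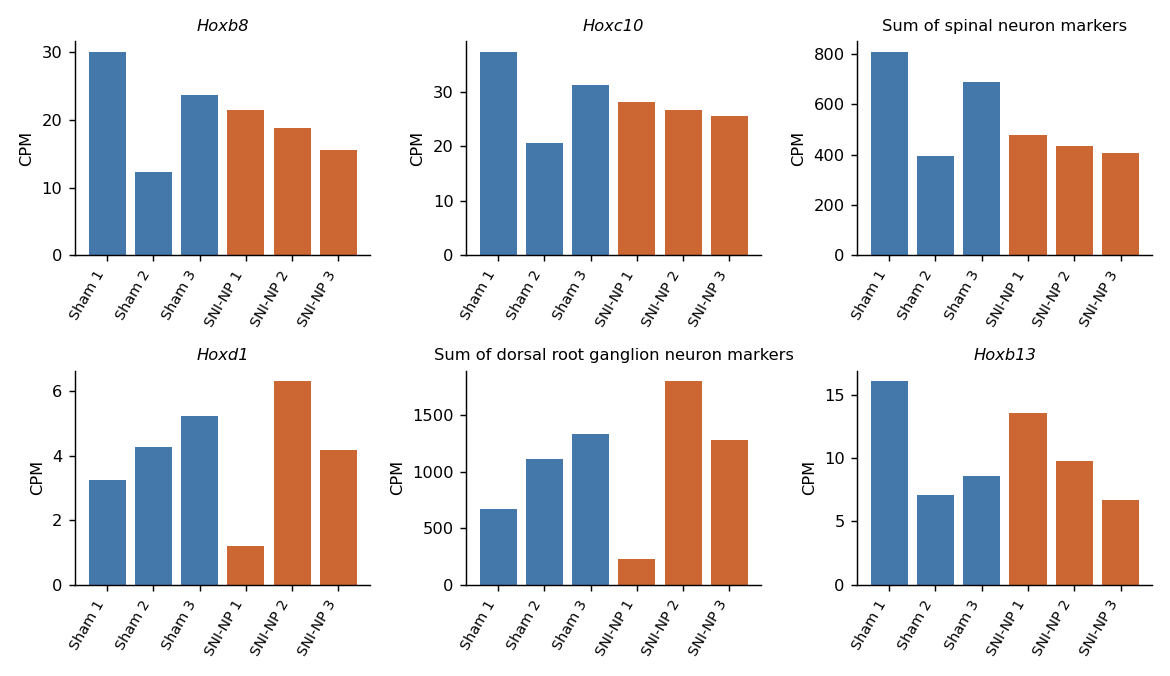
CPM per library (bars from 0, blue for Sham, orange for SNI-NP) of Hoxb8, Hoxc10, Hoxd1 and Hoxb13, and the summed CPM of the spinal neuron and dorsal root ganglion neuron markers. Hoxb8, Hoxc10 and the spinal neuron sum fall in the same order, and Hoxd1 and the ganglion sum are both lowest in SNI-NP 1 and highest in SNI-NP 2.

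Hoxd1, which is known for its use in nociceptive sensory neurons of rodents, held 88.9% of the FPKM of group 1. Its CPM were 3.24, 4.28 and 5.24 in Sham and 1.21, 6.33 and 4.17 in SNI-NP, where the ganglion markers summed to 666, 1112 and 1335 and to 225, 1805 and 1281. Both were lowest in SNI-NP 1 and highest in SNI-NP 2, and the orders of the 6 libraries differed by 1 exchange. Scn10a, a sodium channel of nociceptors, ranged from 14.3 CPM in SNI-NP 1 to 277 in SNI-NP 2. Per 1000 CPM of ganglion markers Hoxd1 kept to 3.85 to 4.87 in Sham and 3.26 to 5.37 in SNI-NP. Its log2 fold change was -0.12 (SE 0.53, adjusted p = 0.949), and leaving out single libraries moved it from -0.66 to 0.30. With the ganglion neuron sum as a covariate in edgeR, it was -0.15 (adjusted p = 0.764).

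Other members differed little between conditions relative to their error. Hoxb2, a hindbrain gene, had 5.40 ± 0.616 CPM in Sham and 5.47 ± 0.365 in SNI-NP, and Hoxd9, a lower thoracic and lumbar gene, had 9.13 ± 1.77 and 9.04 ± 1.69. Their intervals of 2 standard errors ran from -0.36 to 0.39 and from -0.46 to 0.43, which leaves room for changes of either sign. Hoxb7 (log2 fold change -0.20, SE 0.18, adjusted p = 0.679), Hoxc11 (0.31, SE 0.33, adjusted p = 0.727), Hoxc4 (-0.08, SE 0.34) and Hoxb13 (-0.08, SE 0.37) did not pass the test either. Hoxa2, Hoxd3, Hoxa4, Hoxb4, Hoxd4, Hoxc5, Hoxa7, Hoxd8, Hoxb9, Hoxc9, Hoxd10, Hoxa11 and Hoxc13 make up the rest of the 28, with mean CPM between 0.789 and 7.62. Hoxb9 (6.06, 2.65 and 5.35 CPM in Sham, 5.92, 2.28 and 2.32 in SNI-NP) was split into a higher and a lower set of libraries across the conditions.

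The 9 rows named only by description had no call either, with the smallest unadjusted p at 0.216 for the Hox-A6-like row. That row held 107, 95 and 93 counts in Sham and 114, 50 and 52 in SNI-NP, and SNI-NP 1 again stood with the Sham libraries.

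Genes that work with or on Hox genes were read from 6 lists. Of 79 listed genes 55 passed the filter, 0 passed at an adjusted p under 0.05 and 2 at an unadjusted p, a smaller share than the 10.8% of all genes tested. Suz12, a core subunit of the Polycomb complex that writes the silencing histone mark, had 135, 127 and 113 counts in Sham and 96, 43 and 74 in SNI-NP, with a log2 fold change of -0.84 (SE 0.31, adjusted p = 0.436). Rara, a retinoic acid receptor upstream of anterior Hox genes, had 28.5 ± 1.28 CPM in Sham and 35.7 ± 2.16 in SNI-NP, with a log2 fold change of 0.32 (SE 0.11, adjusted p = 0.436). Neither passed after adjustment.

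The medians of the lists were -0.10 for the 9 TALE cofactors tested, -0.03 for 18 Polycomb genes, 0.06 for 8 trithorax genes and H3K27 demethylases, 0.03 for 9 genes of axial signals and ParaHox, and -0.09 for 9 genes of motor columns and lumbar targets. Of 13 brain homeobox and hindbrain genes 2 passed the filter, among them Egr2, a gene of hindbrain segments and of myelinating Schwann cells. Otx1, Otx2, Emx1, Emx2 and Six3, which mark forebrain and midbrain, had 0 counts in all 6 libraries. Hox genes of each paralog group from 1 to 13 were present in the same libraries. Isl1, a gene of motor and sensory neurons named here after its values were seen, had 46, 103 and 112 counts in Sham and 10, 122 and 104 in SNI-NP, lowest in SNI-NP 1 as Hoxd1 was.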

How the data were processed

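Total RNA of rat spinal cord was extracted with TRIzol and made into libraries with a NEBNext Ultra RNA kit, whose strand setting is not given in the sources used here, so reads of overlapping or antisense Hox transcripts cannot be told apart. The study's methods give alignment to Rat6 with unique reads kept, and the submitters' processing notes name FastQC, STAR and HTSeq without versions. The deposited table gives estimated counts per gene, as the authors supplied them, which were whole for most genes and fractional where rows share reads (3 member rows), and FPKM made by the authors per gene length and library size. How reads were divided between rows is not stated, and whole counts of unique reads would not give fractions. No column of the authors' own comparisons was used.

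Counts were rounded, filtered with filterByExpr, scaled by TMM and tested with edgeR 4.0.16 (quasi-likelihood, condition as the only term, all 6 libraries, R 4.3.3). P-values were adjusted by Benjamini-Hochberg over the 14426 genes tested. CPM used TMM-scaled library sizes. For edgeR, the standard error was taken as the absolute log2 fold change over the square root of the test's F statistic. The pipeline was tested on simulated data. Alternatives were DESeq2 1.42.0, limma 3.58.1 on log2(FPKM + 0.1) and log2(FPKM + 1), other size factors and filters, a replicate block and leaving out each library. Fits with the spinal neuron or ganglion neuron sum as a covariate and counts with the 9 rows named by description were added after seeing the data. Fold changes and tests are printed for the 8 members with the smallest p and for the member with the highest FPKM of each paralog group, and genes of the partner lists are named where their unadjusted p was under 0.05. The members, gene lists and marker lists were chosen with earlier results of these data known. No 2 libraries of the same condition agreed within sampling noise. Counting limits cover counting error only. Results for some genes are not reported here.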

Additional observations from a re-analysis of the deposited data

How the results depend on the processing

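The count of Hox genes with an adjusted p under 0.05 was 0 under each alternative run. Over all genes, that count was 0 with edgeR, 194 with DESeq2, 2 with limma at either pseudocount, 210 with the ganglion neuron sum as a covariate, and 0 to 222 when single libraries were left out (222 without SNI-NP 1, 2 without Sham 2). At an unadjusted p it was 1565, and 908 to 2134 with a library left out. Hox genes at an unadjusted p numbered 1 with limma on log2(FPKM + 1), 2 with the spinal neuron sum as a covariate, and 0 to 4 with a library left out (4 without Sham 2, which were Hoxc12, Hoxb5, Hoxb8 and Hoxc10, and 2 without SNI-NP 1). Partner genes were 0 to 1 by adjusted p with a library left out, and at an unadjusted p 2 with edgeR, 4 with DESeq2, 5 with the ganglion covariate, 0 with the spinal neuron covariate and 0 to 6 with a library left out. The median Hox log2 fold change of -0.11 ran from -0.24 (without Sham 2) to -0.094 with a library left out, and was -0.0082 with the spinal neuron covariate.

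That covariate turned the sign of Hoxb6 (0.016), Hoxb8 (0.43), Hoxd9 (0.21), Hoxc10 (0.26) and Hoxb13 (0.48). The ganglion covariate turned Hoxd9 (0.0072), and limma turned Hoxb2 (-0.021 with a pseudocount of 0.1 and -0.018 with 1). Leaving out single libraries moved Hoxb13 from -0.36 to 0.34, Hoxb2 from -0.053 to 0.092, Hoxb8 from -0.53 to 0.039, Hoxc10 from -0.35 to 0.039, Hoxc4 from -0.30 to 0.38, Hoxd1 from -0.66 to 0.30 and Hoxd9 from -0.16 to 0.12. The cause was not tested.

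The posterior share of 31.1% in Sham and 32.3% in SNI-NP was 35.8% and 37.0% of CPM, 20.4% and 21.5% without Hoxc10, 41.8% and 43.6% for groups 9 to 13, 36.6% and 37.9% with the rows named by description, and 25.3% and 26.3% without group 13. Its difference of 1.26 points ran from -0.54 (without Sham 2) to 3.70 with a library left out, and was -0.12 without SNI-NP 1.

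Replicate numbers did not pair the libraries: deviations of same-numbered libraries correlated at 0.21, -0.14 and 0.05. With the replicate number as a block, 0 Hox genes were called, 1319 genes had an unadjusted p under 0.05 and the median Hox log2 fold change was -0.11. With 3 libraries a group and a median standard error of 0.32 for Hox genes, changes of that size could not be resolved.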
